A study of Mus musculus with 14 samples.

Results

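The USP family, the ubiquitin-specific proteases, is described here in mammary epithelial cells of mice that overexpress 1 of its members, Usp22. The genes were chosen by symbol: a protein-coding gene whose symbol is Usp followed by a number, without Usp22 itself and its near relatives Usp27x and Usp51. Of the 16124 genes in the deposited table, 45 had such a symbol, and 43 remained after Usp22 and Usp27x were left out (Usp51 is not a row of the table). The series holds 14 polyA RNA libraries, 1 per mouse, from 7 wild-type (WT) and 7 Usp22-overexpressing (OE/OE) nulliparous females aged 3.5 months, which form 7 littermate pairs numbered 1, 3, 4, 5, 6, 7 and 8. OE/OE mice are homozygous for a mouse Usp22 cDNA with FLAG and MYC tags, knocked into the ROSA26 locus through targeted ES cells and driven by the CAGGS promoter, whose LoxP-flanked STOP cassette was removed with ZP3-Cre, so that the transgene is on in all tissues and not in the mammary epithelium alone. WT littermates carry no activated transgene. Cells were prepared from minced, enzyme-digested glands with the lymph nodes removed.

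Ubiquitin is attached to lysines of other proteins as a single unit or in chains, which send a protein to the proteasome or change its place, partners or activity. USPs are cysteine proteases that take ubiquitin off again, and each works on its own set of substrates and in its own compartment, from histones and repair foci to endosomes and mitochondria. Usp22 acts within the SAGA coactivator complex on histone H2B and other proteins. The comparison asks how strongly the rest of the family is expressed in this epithelium, how much its members vary between litters, and whether any member's transcript differs when Usp22 is overexpressed.

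What the members share beyond their names can be read from their coding sequences. The active-site cysteine of a USP lies in a short conserved box, searched here in frame in the GENCODE M21 coding sequences as an AAY codon, any codon, a GGN codon, any codon, a codon for threonine or serine, the TGY codon of the cysteine, 2 further codons and a codon for asparagine, alanine or serine. Of the 43 genes, 37 held this box, and 4 held a variant of it (Usp10, Usp47, Usp53 and Usp54, the last 2 long classed as inactive enzymes). The 2 genes without it were Usp39, a splicing factor whose USP domain lacks the catalytic cysteine, and Usp6nl, which encodes a TBC-domain regulator of Rab GTPases and is no deubiquitinase, although its symbol meets the rule. Counts below are over 43 genes, and the number of genes called was the same over 42 without Usp6nl. The 30 bases around the cysteine codon (capitals) are shown, on the coding strand, for the members that the results turn on and for some of their closest relatives.
Usp28, codon 171, chr9:49003959-49003961: aatgttggcaacacaTGTtggttcagtgct
Usp25, codon 178, chr16:77050537-77050539: aatgtcggcaacaccTGCtggtttagtgca
Usp46, codon 44, chr5:74032503-74032505: aattttggaaacacaTGCtactgtaactcc
Usp12, codon 48, chr5:146763400-146763402: aattttgggaataccTGCtactgcaactca
Usp53, codon 41, chr3:122968610-122968612: ccagggcagaacagcTGCtttctaaacagt
Usp54, codon 42, chr14:20607103-20607105: ccagggcaaaacagcTGCttcctcaacagt
Usp18, codon 61, chr6:121253794-121253796: aacatcggacagacgTGTtgccttaactcc
Usp2, codon 290, chr9:44090030-44090032: aaccttgggaacacgTGCttcatgaactca
The coordinates are those of the cysteine codon on GRCm38, on the plus strand for Usp28, Usp25, Usp18 and Usp2 and on the minus strand for Usp46, Usp12, Usp53 and Usp54. The paralogs Usp25 and Usp28 share 25 of these 30 bases, as do Usp12 and Usp46, while Usp53 and Usp54 share 27.

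The 14 libraries held between 20125106 and 41835978 fragments on genes, and the lowest value of any USP gene in any library was 24 fragments. Counting error was largest for Usp13. For other low members, such as Usp28, Usp35 and Usp49, it was not small beside the changes given below. Epithelial markers were high throughout, and 12 of 12 pan-epithelial genes were measured, with summed normalized counts of 389991 to 642315 in WT and 423892 to 702298 in OE/OE mice. Among them Elf3 and Cldn7 were higher in OE/OE mice. Markers of other cells were also present. At the same threshold 5 of 12 adipocyte markers were called lower in OE/OE mice, among them the defining markers Adipoq and Plin1. Of the 12, 9 had log2 fold changes below 0 and 3 above. Their summed counts overlapped, at 20756 to 42532 in WT (median 30475) and 15491 to 40138 in OE/OE mice (median 32834). Of 10 fibroblast markers 2, Pdgfra and Lum, were called lower, and all 10 had log2 fold changes below 0. Their summed counts were 91092 to 183602 in WT and 59209 to 136009 in OE/OE mice. All 10 endothelial and all 10 macrophage markers also had log2 fold changes below 0, with 0 and 1 called lower. So had 6 of 8 hormone-sensing luminal, 7 of 9 basal and 6 of 9 measured lymphocyte markers. Above 0 were 10 of 12 pan-epithelial, 7 of 12 skeletal muscle, 13 of 20 mitosis and S phase and 4 of 8 luminal progenitor markers. Over all genes, 3.81% were called in either direction. The OE/OE library of pair 4 stood apart from the rest: its mean log2 level exceeded that of its WT littermate by 3.53 over 20 mitosis and S phase genes and differed from it by -2.03 over 12 adipocyte genes and by -1.69 over 10 endothelial genes. The WT library of pair 1 stood apart in lymphocyte markers, of which 9 of 11 were measured: their mean log2 level was 7.34 in it and 3.75 to 5.40 in the other 13 libraries, with summed counts of 216 to 1908 in WT and 221 to 678 in OE/OE mice. These are bulk samples, in which fewer cells of a type and less RNA per cell cannot be told apart.

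The targeted gene separated the genotypes without overlap. Usp22 (chr11:61151785-61175055, GRCm38) had a lowest, median and highest value of 3500, 4119 and 5380 normalized counts among the 7 WT mice and of 74948, 107962 and 144288 among their 7 OE/OE littermates. The log2 fold change was 4.65 (SE 0.11, adjusted p = 4.74e-08, limma). Per kilobase of annotated exon, only Usp25 and Usp19 stood above Usp22 in WT, with 871 ± 142 normalized counts per kilobase (SD, n = 7), which was 5.73% to 7.27% of the summed level of the family. In OE/OE mice it reached 22020 ± 4559 per kilobase (SD, n = 7) and made up 54.8% to 71.5% of that sum. Its level in these mice was 1.21 to 2.51 times the level of the other 43 genes added together. Since the transgene is a cDNA, its reads fall on part of the annotated exons only, and the value per kilobase of annotated exon is then too low for transgene transcripts.

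The summed level of the 43 other genes overlapped between genotypes. The sum was 11509 to 15642 normalized counts per kilobase in WT (median 12594) and 11759 to 18465 in OE/OE mice (median 13152). The log2 ratio within pairs was 0.071 ± 0.114 (SD, n = 7), above 0 in 5 of 7 pairs (p = 0.172, two-sided exact sign-flip test over the pairs, whose smallest possible p is 0.0156).

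In WT epithelium the members spanned a wide range of levels. The median was 234 normalized counts per kilobase, against 130 over all genes of the table. The 5 highest held 32.2% of the summed level: Usp25, an enzyme of cytokine and Toll-like receptor signalling, with 960 ± 157 per kilobase (SD, n = 7), Usp19, which has a form anchored in the endoplasmic reticulum, with 904 ± 165, Usp9x, a large X-linked enzyme acting on trafficking proteins and on the survival factor MCL1, with 856 ± 215, Usp7, which controls the p53 regulator MDM2, with 815 ± 135, and Usp2, which acts on cyclin D1 and is rhythmic in many tissues, with 756 ± 187. The 5 lowest were Usp28, a partner of the repair protein 53BP1 that stabilizes MYC, with 52.0 ± 13.0 per kilobase, Usp40 with 41.4 ± 12.8, Usp35 with 34.8 ± 13.7, Usp49, which acts on histone H2B and of whose exon bases 52.3% overlap other genes, with 28.4 ± 7.60, and Usp13, a relative of the chain-recycling enzyme Usp5, with 6.41 ± 2.66 (SD, n = 7 for each). Along the order of the 43 genes, 39 of the 42 steps from 1 gene to the next were no larger than the greater of the 2 SDs. The 3 larger steps were from Usp15 to Usp20, from Usp30 down to Usp28 and from Usp49 down to Usp13, and only in the last 2 did the WT ranges not overlap.

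**Figure D1:**
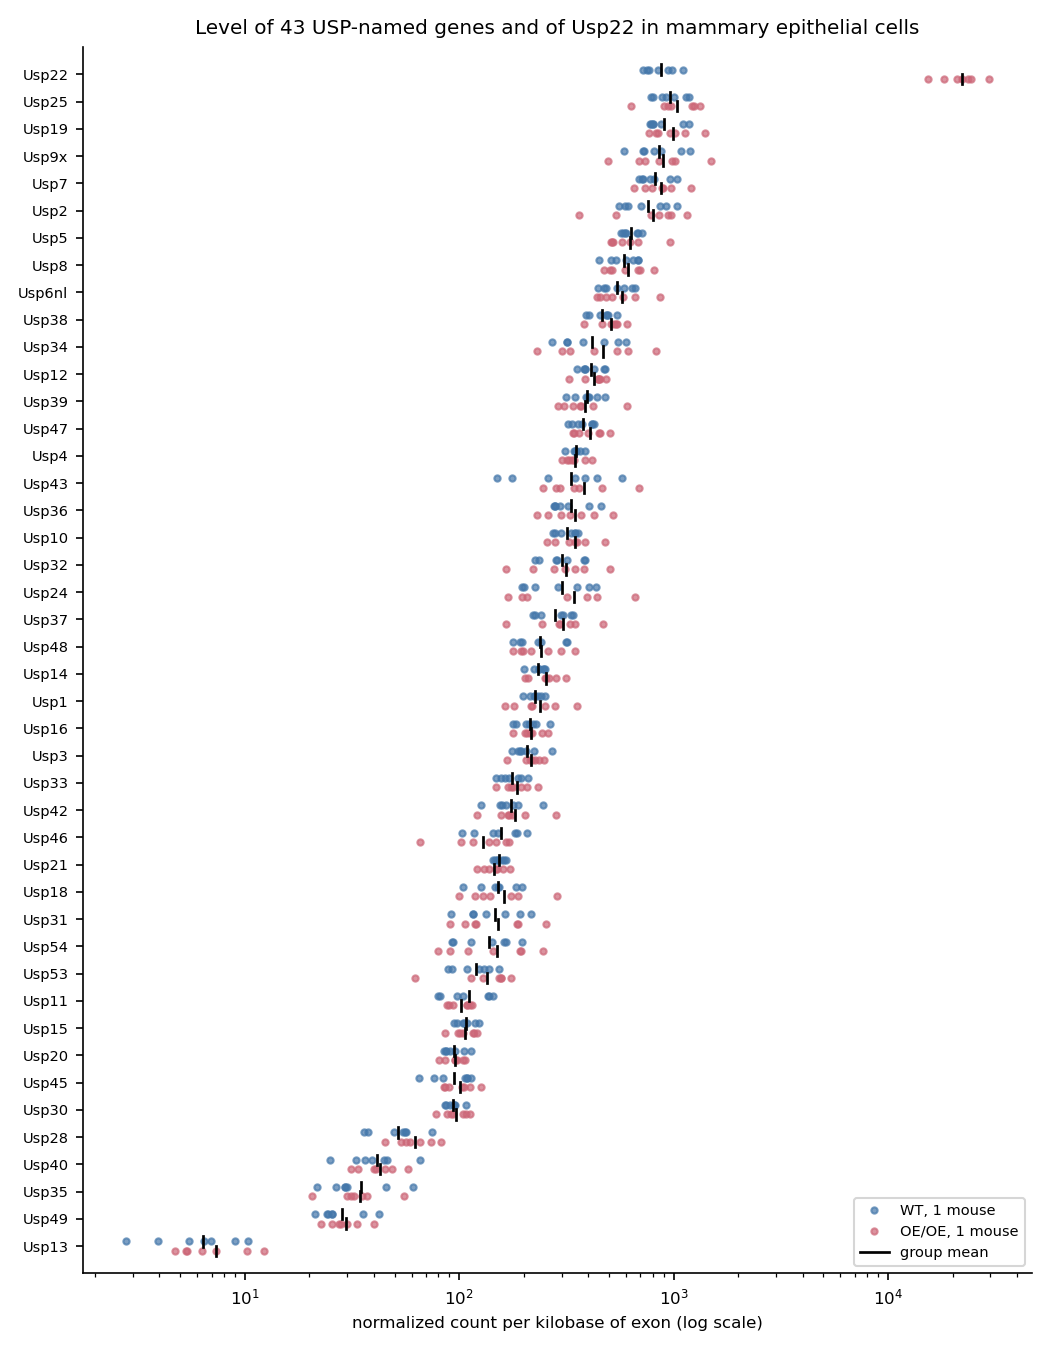
Level of each of the 43 USP-named genes and of Usp22, in normalized counts per kilobase of exon on a log scale. Each point is 1 mouse (blue WT, red OE/OE, 7 each) and each black tick a group mean; the groups overlap for all 43 genes and are apart only for Usp22, whose OE/OE mean is 22020 per kilobase against 871 in WT.

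Close relatives were expressed at very different levels. Usp25 exceeded Usp28 by 13.6 to 21.9 times per kilobase in the 7 WT mice (median 20.4), and Usp5, which disassembles free ubiquitin chains, exceeded Usp13 by 54.9 to 255 times (median 106). Of the enzymes that are activated by the WD-repeat protein UAF1, Usp12 exceeded Usp46 by 2.05 to 4.01 times (median 2.53). Usp4 exceeded its DUSP-domain relatives Usp15 by 2.84 to 3.68 times (median 3.25) and Usp11 by 2.26 to 4.76 times (median 3.34). Usp53 and Usp54 were close, with a ratio of 0.782 to 1.16 (median 0.855), so that neither was higher in every mouse.

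Within littermate pairs, 1 of the 43 genes, Usp28, passed the study's threshold of an unadjusted p of 0.05 or less in limma with the pair as a block, against a background of 3.81% of all 16124 genes (1.95% higher and 1.85% lower in OE/OE mice). No member passed after Benjamini-Hochberg adjustment (smallest adjusted p = 1.00, limma). By edgeR's quasi-likelihood test on the recovered fragments it was also 1 of 43, again Usp28, against 3.70% of all genes. All 43 log2 fold changes lay between -0.29 and 0.27. The median size of the change was 0.069, against 0.079 over the 12859 genes in the same range of WT level and 0.090 over all genes. The 95% intervals show what differences remain possible: for 39 of the 43 genes (90.7%, against 61.2% of all genes) the interval lay inside -0.5 to 0.5 on the log2 scale, and for all 43 it lay inside -1 to 1. The 4 genes with wider reach were Usp28, Usp43, Usp13 and Usp46. The share of such intervals was not computed for genes of like WT level. Their pair ratios had a median SD of 0.312, against 0.359 over all genes and 0.238 for the members.

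**Figure D2:**
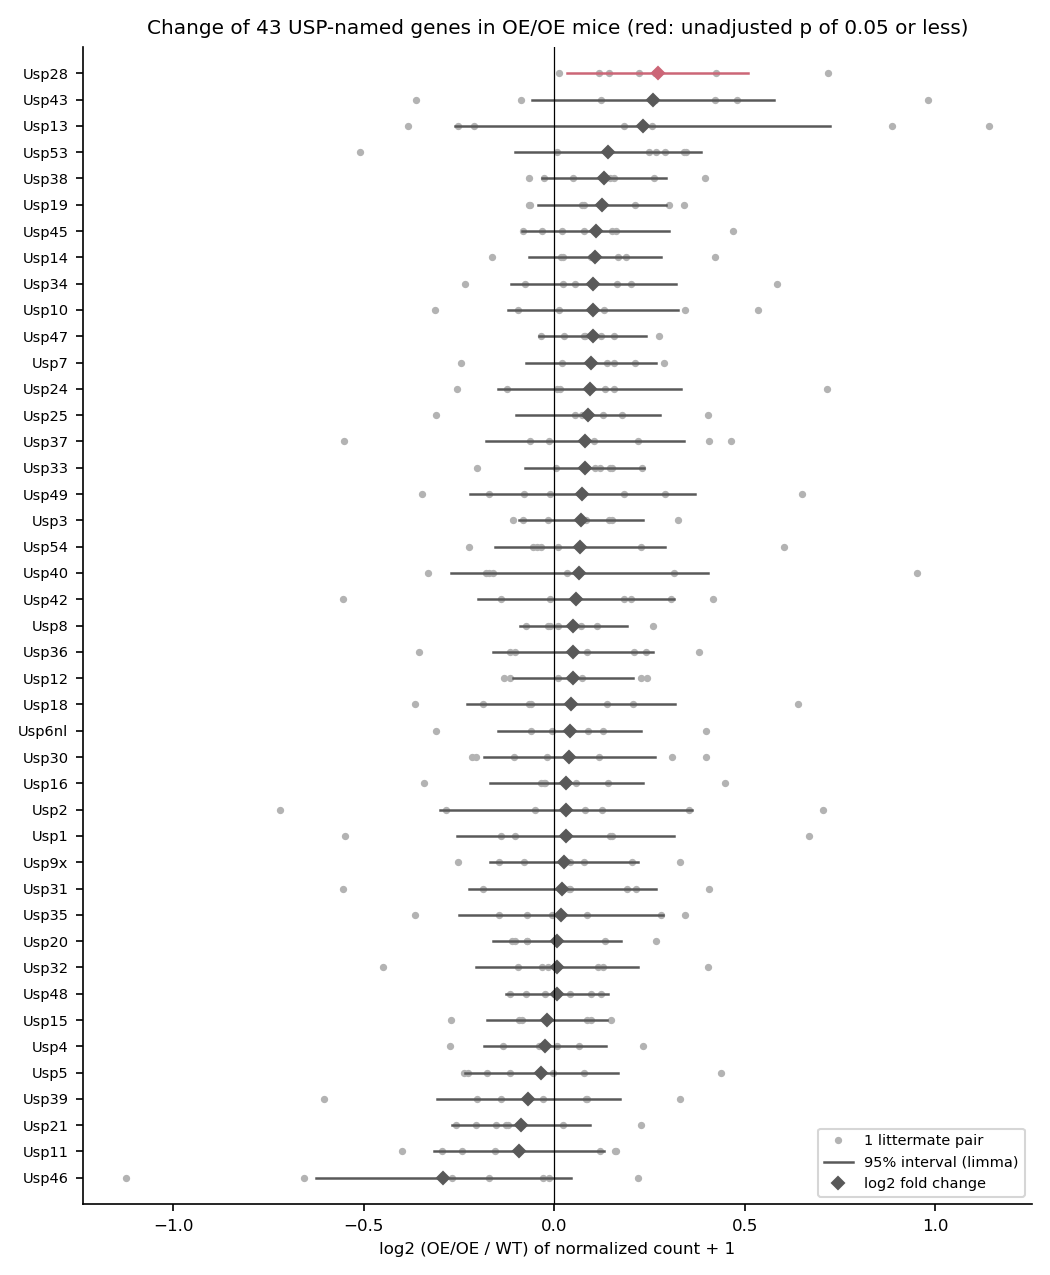
Change of the 43 genes in OE/OE against WT mice, as log2 of the ratio of normalized counts + 1. Gray points are the 7 littermate pairs, diamonds the log2 fold changes and lines their 95% intervals from limma; all diamonds lie between -0.29 and 0.27, and 1 interval, that of Usp28 (red), leaves out 0.

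Usp28 (ENSMUSG00000032267.8, chr9:48985375-49042517, GRCm38, plus strand) was the only member that was higher in OE/OE mice in all 7 pairs, a pattern that 1.51% of all genes showed in either direction. Its normalized counts in pairs 1, 3, 4, 5, 6, 7 and 8 were 288, 218, 209, 433, 328, 327 and 319 in WT and 312, 262, 345, 479, 331, 382 and 429 in OE/OE mice. The groups overlapped widely and littermates were alike, with pair 5 the highest in both genotypes, and the rise was largest in pair 4 and smallest in pair 6. The difference in pair 6, 331 against 328, was within counting error. The mean went from 303 ± 76.1 to 363 ± 73.4 (SD, n = 7 each), a log2 fold change of 0.27 (SE 0.11, 95% interval 0.034 to 0.509, unadjusted p = 0.029, adjusted p = 1.00, limma). The exact two-sided sign-flip test gave p = 0.0156, the smallest it can give. Any gene with the same direction in all 7 pairs gets this p, so it adds nothing to the count of pairs. Of the 43 members, 2 were below 0.05 by this test, without adjustment over the members. The other was Usp47 (p = 0.047, exact sign-flip test), which was higher in OE/OE mice in 6 of 7 pairs. With pair 3, 4, 7 or 8 left out, the unadjusted limma p was 0.054, 0.051, 0.055 or 0.074, and over all 7 omissions the log2 fold change stayed between 0.20 and 0.31. Without the pair as a block the unadjusted p was 0.15, and with the adipocyte score of each library added to the model the log2 fold change was 0.12 (unadjusted p = 0.31, limma). The part of the differences in adipocyte, fibroblast and other cell markers in the Usp28 result was not tested beyond this fit.

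Its paralog Usp25 had 4084 to 6131 normalized counts in WT (median 4817) and 3295 to 6928 in OE/OE mice (median 5069), which overlapped. Usp25 was higher in OE/OE mice in 6 of 7 pairs and lower in pair 4, with a log2 fold change of 0.09 (95% interval -0.10 to 0.28, unadjusted p = 0.32, limma). Usp53, a protein of cell junctions, had the same pattern, with 1117 to 1928 normalized counts in WT (median 1548) and 784 to 2203 in OE/OE mice (median 1936), a log2 fold change of 0.14 (unadjusted p = 0.22, limma). Without pair 4 the count of members called was 2, Usp25 and Usp53, both higher in OE/OE mice, while 8.47% of all genes passed in that fit.

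The largest difference below 0 was that of Usp46, which with UAF1 acts on histones, the phosphatase PHLPP and glutamate receptors. Its normalized counts were 806 to 1616 in WT (median 1191) and 517 to 1342 in OE/OE mice (median 1075), with overlap. Usp46 was lower in OE/OE mice in 6 of 7 pairs, with a log2 fold change of -0.29 (95% interval -0.63 to 0.04, unadjusted p = 0.080, limma), and the pair with the largest difference was pair 4. With the mitosis and S phase score of each library in the model, Usp46 passed the threshold (unadjusted p = 0.031, limma), as did 6.51% of all genes. With the adipocyte score in the model the log2 fold change of Usp46 was -0.01 (unadjusted p = 0.94, limma), and without pair 4 it was -0.15 (unadjusted p = 0.18) and without pair 5 -0.38 (unadjusted p = 0.037, limma). The close relative Usp12 had a log2 fold change of 0.05 (95% interval -0.11 to 0.21). Some 4.62% of the exon bases of Usp46 overlap annotated antisense genes, and how strand was treated in counting is not given in the sources used here.

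**Figure D3:**
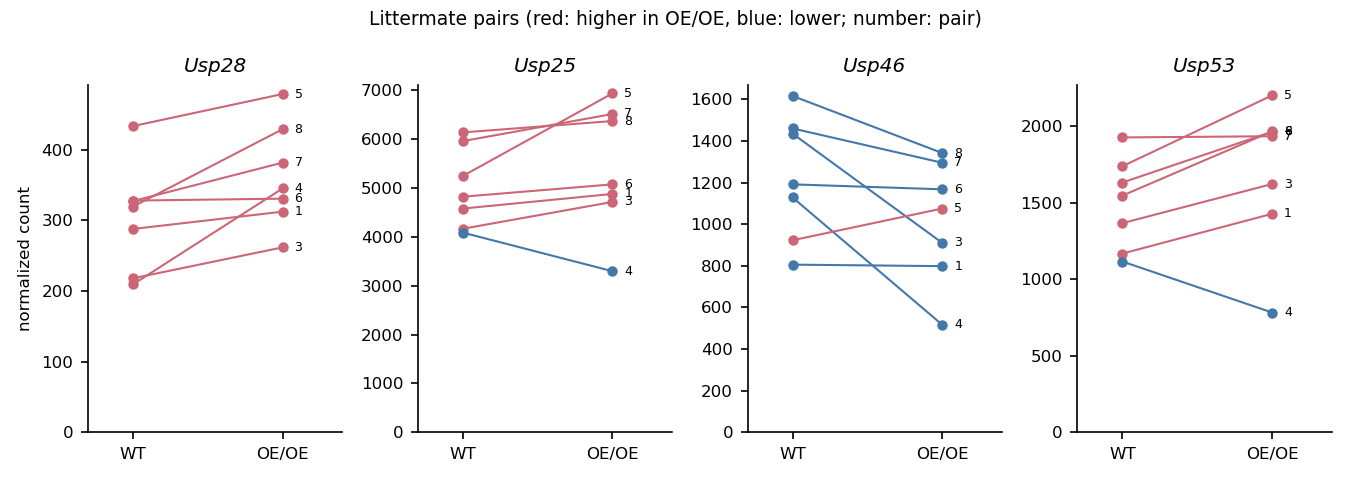
Normalized counts of Usp28, Usp25, Usp46 and Usp53 in the 7 littermate pairs, WT at the left and OE/OE at the right of each panel, with axes from 0. Lines join littermates (red where OE/OE is higher, blue where lower, numbers give the pair); Usp28 rises in all 7 pairs, Usp25 and Usp53 in all but pair 4, and Usp46 is lower in all but pair 5.

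Read by role, the fold changes were small in every group. Of the 8 enzymes of chromatin and the nucleolus (Usp3, Usp7, Usp16, Usp21, Usp36, Usp42, Usp48 and Usp49, several of which act on histones) none was called, and their log2 fold changes ran from -0.09 for Usp21 to 0.10 for Usp7. Of the 6 enzymes listed under DNA repair and the cell cycle, Usp28 was called. Usp1, which deubiquitinates FANCD2 and PCNA, Usp37, which acts on cyclin A, Usp45, Usp12 and Usp46 were not. As listed, this group held both ends of the family's range, Usp28 and Usp46. That rests on the listing of Usp46, whose substrates named above are not particular to this role. Of the 3 enzymes of the proteasome and of chain recycling none was called: Usp14, which sits on the proteasome, had 0.11, Usp5 had -0.03 and Usp13 had 0.23 with an interval from -0.26 to 0.72. The value of Usp13 was 0.08 without pair 4, 0.12 without pair 6 and -0.14 with the adipocyte score in the model, and 26.0% of the exon bases of Usp14 overlap a gene on the other strand.

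The 8 enzymes of membranes, trafficking and organelles all had log2 fold changes above 0, from 0.01 for Usp20 and Usp32 to 0.12 for Usp19, and none was called. They include Usp8, which acts on receptors at endosomes, Usp30 of the mitochondrial outer membrane, and Usp10 and Usp33. Usp4, Usp11 and Usp15, 3 relatives grouped here by their DUSP and ubiquitin-like domains, had values below 0 (-0.02, -0.09 and -0.02), with none called. The group does not hold every member with such domains, so this direction is not a trait of the domains. None of the 5 signalling enzymes, Usp2, Usp24, Usp25, Usp34 (a regulator of axin in WNT signalling) and Usp47, was called (0.03 to 0.10), nor were the 3 members without a full catalytic triad, Usp39, Usp53 and Usp54 (-0.07 to 0.14). Of the 5 less characterised members (Usp31, Usp35, Usp38, Usp40 and Usp43) none was called, and Usp43 had 0.26 with an interval from -0.06 to 0.58, which was 0.14 without pair 6.

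Taking all 43 genes, 36 had a log2 fold change above 0 and 7 below, with a median of 0.050, where 49.6% of all genes were above 0, with a median of -0.001. The median over the members differed between pairs: 36 of the 43 were higher in the OE/OE mouse of pair 8 but 10 of 43 in that of pair 1. The count above 0 fell to 27, 28 and 29 without pair 5, 8 and 4, and it was 29 after quantile normalization and 21 with the adipocyte score in the model. That last fit called 5 members, Usp53 as higher and Usp1, Usp39, Usp21 and Usp40 as lower, and it called 16.5% of all genes. The genes also share a pattern over litters, described next, so these counts are not over independent genes.

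The levels of the members varied with the litter. After the mean of each genotype was removed, the share of the remaining sum of squares of each gene that lay between litter means was taken. Litter means vary also where littermates have nothing in common, so unrelated littermates would give a large share too. The share is therefore set beside that of all genes. Over the 43 genes the median of this share was 84.8%, from 34.2% for Usp30 to 98.4% for Usp48, which acts on histone H2A, against a median of 77.1% over all genes and 79.0% over the 12859 genes in the same range of WT level. The SD over the 7 litter means was a median of 0.264 on the log2 scale, against 0.320 over the genes in that range and 0.355 over all genes. This SD was largest for Usp24 (0.593), Usp43 (0.572), Usp34 (0.536), Usp54 (0.509) and Usp13 (0.502). For Usp24, an enzyme of 2617 codons, the WT counts were 2421, 2800, 2478, 4996, 3579, 5389 and 4377 in pairs 1, 3, 4, 5, 6, 7 and 8, and the OE/OE counts were 2434, 2567, 2076, 8200, 3927, 5439 and 4877. In both genotypes pairs 5, 7 and 8 were the 3 highest and pairs 1, 3 and 4 the 3 lowest.

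Most members shared this order. Litter 5 was the highest of the 7 for 27 of the 43 genes, and 35 were above their own mean in it (median deviation 0.30), as were 36 in litter 7 (0.15) and 31 in litter 8 (0.08). In litter 1, 38 of 43 were below their mean (median -0.17), in litter 3 36 (-0.14) and in litter 4 33 (-0.23). The median over all genes lay between -0.014 and 0.015 in each litter, as the median-based normalization sets it. In most litters the deviations went with exon length. The correlation across members between the deviation and log2 exon length was 0.51, 0.55 and 0.36 in litters 5, 7 and 8 and -0.43, -0.40 and -0.46 in litters 1, 3 and 4, while in litter 6 it was -0.08. Across all genes it was 0.49, 0.36 and 0.24, then -0.32, -0.28 and -0.43, and -0.06 in litter 6. These are correlations across genes within libraries that all genes share, and genes are not independent replicates. The long members Usp34, Usp9x and Usp24 had deviations of 0.70, 0.67 and 0.80 in litter 5 and of -0.73, -0.65 and -0.69 in litter 4, and the part of exon length in it was not tested further.

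**Figure D4:**
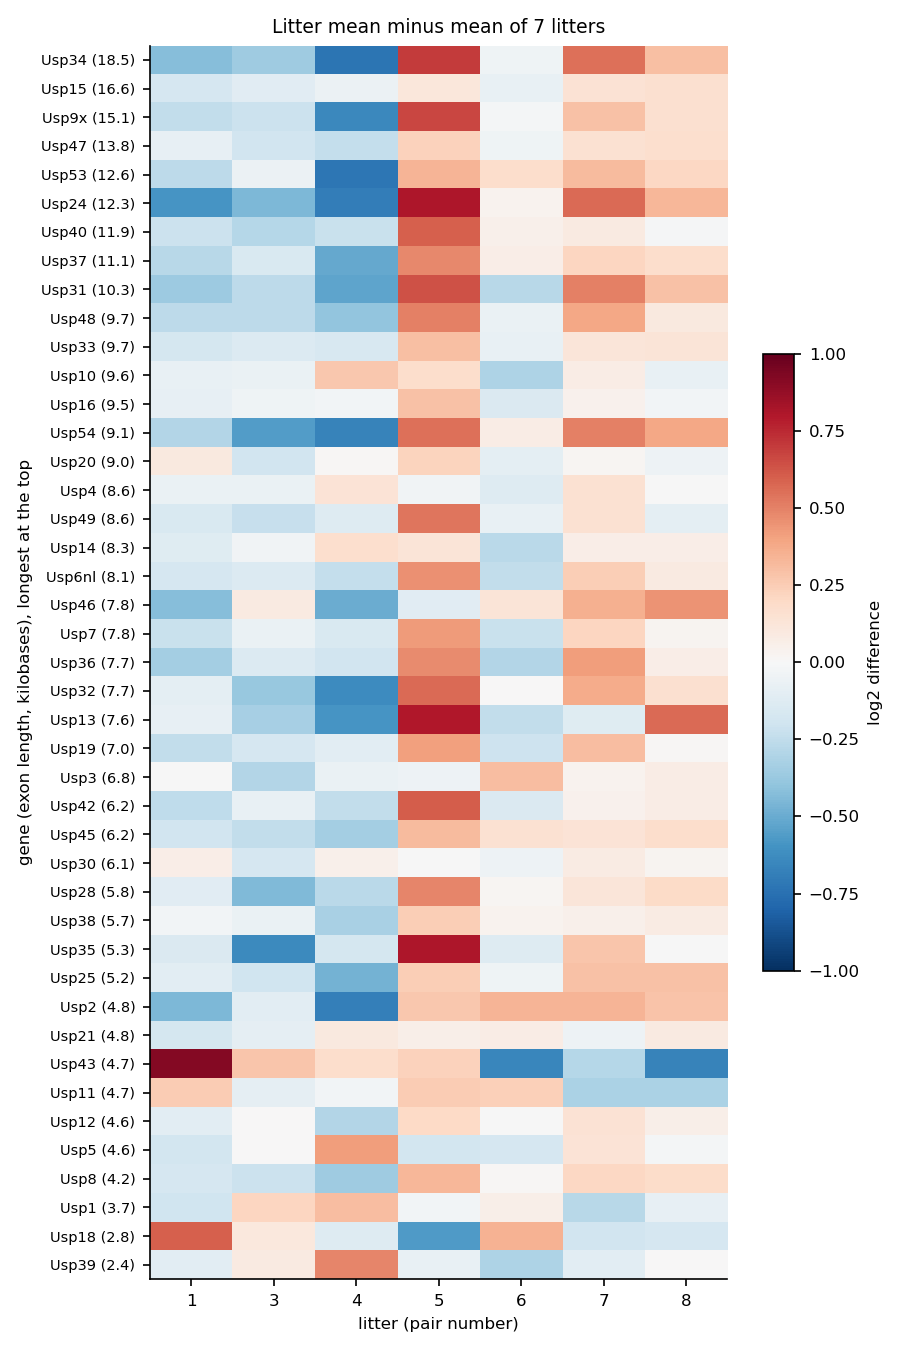
Deviation of each litter mean (WT and OE/OE littermates averaged) from the mean of the 7 litters, in log2 units, for the 43 genes ordered by exon length with the longest at the top. Columns are litters; litter 5 is above the mean for 35 genes and litter 1 below it for 38, and Usp43 and Usp18 run against this order.

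A few members ran against it. Usp43 was highest in litter 1 and lowest in litters 6 and 8, with normalized counts of 2712 in WT and 3257 in OE/OE mice of pair 1 against 836 and 1165 in pair 8. Some 12.8% of its exon bases overlap a gene on the other strand. The WT mouse of pair 1 had the high lymphocyte markers, while the OE/OE mouse, with the higher Usp43, had a lymphocyte level of 5.12, and the part of lymphocytes was not tested further. The 6 members Usp1, Usp5, Usp10, Usp14, Usp21 and Usp39 had their highest litter mean in litter 4. In that litter the OE/OE mouse, with the high mitosis and S phase score, had 1329 normalized counts of Usp1 against 612 to 1042 in the other 6 OE/OE mice, and 1477 of Usp39 against 706 to 1030. Its WT littermate had the lowest mitosis and S phase level of the 14 libraries, 6.87. That mouse had 837 of Usp1, where WT mice ran from 740 to 941, and 1174 of Usp39, the highest WT value. The part of proliferation in these values was not tested.

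Usp18 differs from the others in its substrate: it removes the ubiquitin-like protein ISG15 and restrains the type I interferon receptor, and its own gene is induced by interferon. Its normalized counts were 511, 421, 411, 291, 548, 352 and 427 in WT and 796, 486, 361, 278, 525, 387 and 331 in OE/OE mice of pairs 1, 3, 4, 5, 6, 7 and 8. Pair 1 or 6 was the highest and pair 5 the lowest in both genotypes, and the genotypes overlapped (log2 fold change 0.04, 95% interval -0.23 to 0.32, unadjusted p = 0.73, limma). None of the 16 genes of the ISG15 pathway was called by limma, edgeR or DESeq2 (1 was without pair 4, and 8 were with the adipocyte score in the model), and Isg15 itself had a log2 fold change of -0.13 (unadjusted p = 0.58) and Irf7 of 0.13 (unadjusted p = 0.36, limma). Over the 7 litter means, Usp18 and Isg15 had the same order from litter 5, the lowest for both, to litter 1, the highest. Pearson's r was 0.95 (exact permutation p = 0.0014, adjusted 0.0083) and Spearman's rho 1.00 (exact permutation p = 0.0004, adjusted 0.0024), with adjustment over the 6 relations computed, and r was 0.96 without litters 1 and 6, those farthest from the median of Usp18. With Irf7 the values were r = 0.74 (exact permutation p = 0.055, adjusted 0.11) and rho = 0.79 (exact permutation p = 0.048, adjusted 0.14).

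**Figure D5:**
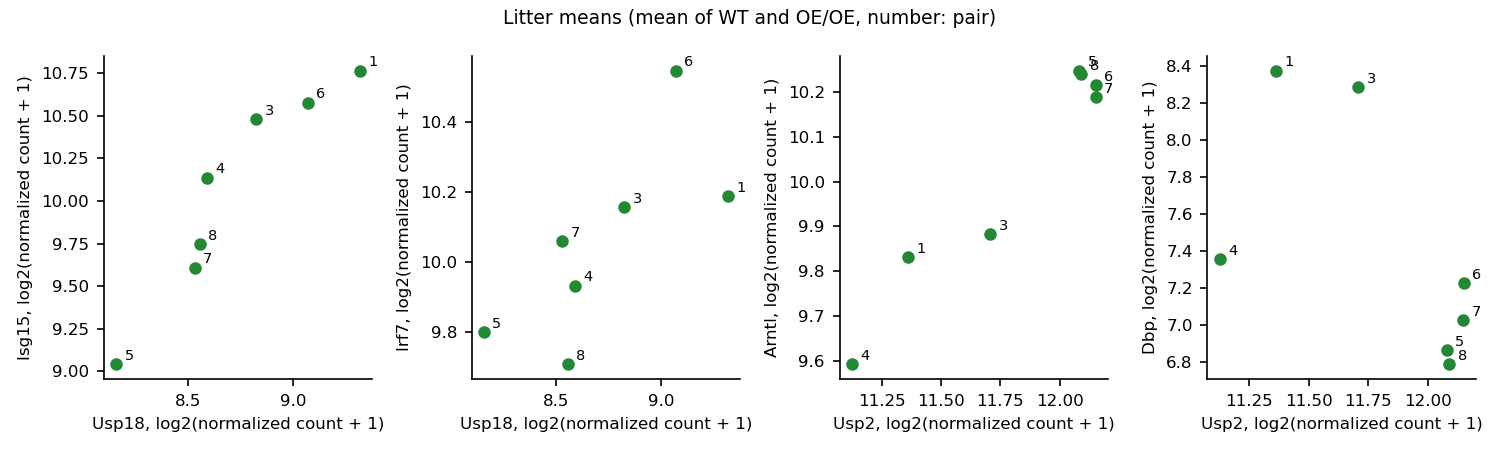
Litter means (mean of the WT and OE/OE littermate, log2 of normalized count + 1) of Usp18 against Isg15 and Irf7 and of Usp2 against Arntl and Dbp; each point is 1 of 7 litters, with its number. Usp18 and Isg15 have the same order of litters (rho 1.00), Usp18 and Irf7 do not (rho 0.79), and for Usp2 litters 1, 3 and 4 lie below the other 4, which are close together.

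Usp2 was followed beside the circadian clock, since its transcript is rhythmic in many tissues. Its normalized counts were 2677 to 5016 in WT (median 3391) and 1738 to 5533 in OE/OE mice (median 4117), with a log2 fold change of 0.03 (95% interval -0.30 to 0.36, unadjusted p = 0.84, limma), and 0 of 18 clock genes were called by limma, edgeR or DESeq2 (3 were without pair 4, 2 after quantile normalization and 8 with the adipocyte score in the model). Its log2 litter means were 11.12, 11.36 and 11.71 in litters 4, 1 and 3 and between 12.08 and 12.15 in the other 4, which lay close together. The clock activator Arntl was lowest in the same 3 litters, with 9.59, 9.83 and 9.88 in litters 4, 1 and 3 and 10.19 to 10.25 in the others. Its output gene Dbp was not: it was 8.37 and 8.29 in litters 1 and 3 and between 6.79 and 7.36 in the other 5. Over the 7 litter means, Pearson's r of Usp2 with Arntl was 0.97 (exact permutation p = 0.0046, adjusted 0.014) and Spearman's rho 0.68 (exact permutation p = 0.11, adjusted 0.22), so the relation passed by r and not by rank, and r was 0.95 without litters 1 and 4. With Dbp r was -0.61 (exact permutation p = 0.13, adjusted 0.19) and rho -0.57 (exact permutation p = 0.20, adjusted 0.30), and with Nr1d1, a clock repressor, r was -0.29 (exact permutation p = 0.52, adjusted 0.62) and rho -0.36 (exact permutation p = 0.44, adjusted 0.53). Without litters 1 and 4 these r were -0.90 and -0.50. Usp37, which is in none of the clock lists, also had its 3 lowest litters in 4, 1 and 3, so Usp2 was not alone in this order. Usp9x, Usp34, Usp24, Usp48 and Usp53 had the same 3 lowest litters in the same order. Most members were below their mean in litters 1, 3 and 4, as described above. Whether the relation of Usp2 with Arntl goes beyond this shared litter pattern was not tested.

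Promoter sequences were taken from RefSeq (GRCm38.p6, from 250 bases before to 50 after the start) for 33 of the 43 genes, which have 34 promoters in the table. They were searched on both strands for the E-box CACGTG, to which clock factors and MYC bind, and for the D-box and the interferon-stimulated response element. The E-box was in 5 of the 34 (14.7%), against 7.15% of all 32851 promoters, namely those of Usp4, Usp16, Usp31, Usp32 and Usp6nl. The D-box was in none, against 0.938% of all promoters, and the interferon element was in 1 (Usp49), against 3.44%. Usp18 has no entry in the table. The promoter of Usp28, the member that was called, and 1 promoter of Usp2, followed beside the clock, are shown whole. They are in lower case since these stretches hold none of the 3 motifs. The Usp2 stretch lies inside the annotated gene (chr9:44067021-44095627, plus strand), at an internal start. The sequence at the outer start of Usp2 is not shown here.
Usp28, chr9:48985135-48985434, plus strand: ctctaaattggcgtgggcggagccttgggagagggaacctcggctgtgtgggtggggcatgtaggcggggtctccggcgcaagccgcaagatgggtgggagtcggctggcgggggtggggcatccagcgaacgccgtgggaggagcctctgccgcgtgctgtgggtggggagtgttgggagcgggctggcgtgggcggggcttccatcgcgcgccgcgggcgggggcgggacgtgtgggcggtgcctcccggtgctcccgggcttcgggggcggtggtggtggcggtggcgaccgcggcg
Usp2, chr9:44084670-44084969, plus strand: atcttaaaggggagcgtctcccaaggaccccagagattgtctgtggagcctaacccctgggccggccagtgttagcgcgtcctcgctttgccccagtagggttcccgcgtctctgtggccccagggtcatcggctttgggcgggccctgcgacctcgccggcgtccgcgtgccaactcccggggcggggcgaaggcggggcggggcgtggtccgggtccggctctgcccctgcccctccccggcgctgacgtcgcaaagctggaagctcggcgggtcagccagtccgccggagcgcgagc
A motif missing from these letters says nothing about binding elsewhere.

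Of 39 measured deubiquitinases and related proteases of other families (OTU, UCH, Josephin, JAMM and MINDY types and a few others), 2 were called. Vcpip1, an OTU-type enzyme of Golgi reassembly, was higher in OE/OE mice, at 3638 ± 803 normalized counts against 3185 ± 555 (SD, n = 7 each), a log2 fold change of 0.18 (SE 0.07, unadjusted p = 0.022, adjusted p = 1.00, limma), in 6 of 7 pairs. Senp8, a protease of the ubiquitin-like protein NEDD8, was lower in all 7 pairs, with 76.1 ± 12.4 and 61.2 ± 15.4 normalized counts and a log2 fold change of -0.33 (SE 0.14, unadjusted p = 0.041, adjusted p = 1.00, limma). Of 25 measured cofactors and inhibitors of USPs, such as Wdr48 (UAF1), Gmps, Stam and the p53 regulators Mdm2 and Mdm4, none was called by limma, edgeR or DESeq2 (1 was without pair 1 or pair 4, and 3 were with the adipocyte score in the model). The shares of 2 of 39 and 0 of 25 stand beside the background of 3.81% of all genes given above.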

How the data were processed

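PolyA RNA from mammary epithelial cells of 14 mice was sequenced by the authors from TruSeq libraries. The authors aligned reads to mm10 with TopHat2 2.0.10, counted fragments per gene with HTSeq 0.6.0 and normalized them with DESeq 1.18.0, per the labels and the methods. The deposited table holds this normalized signal, in which each value is a whole fragment count divided by a library size factor, and every gene reaches 10 fragments in 7 or more libraries. From its steps the fragment counts were recovered: 100% of values were whole within 0.01. Depth was 20125106 to 41835978 fragments on genes per library, and intervals cover the spread between mice.

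Values were tested as log2(normalized count + 1) with limma 3.58.1 (R 4.3.3), with an intensity trend and the littermate pair as a block, at the unadjusted p of 0.05 that the methods use, and Benjamini-Hochberg values were computed over all 16124 genes. edgeR 4.0.16 and DESeq2 1.42.0 were run on the recovered fragments. A single value was tested by an exact two-sided sign flip over the 128 patterns of 7 pairs. The pairs are littermates by the labels and methods, and deviations from the genotype mean correlated within each pair (r = 0.17 to 0.75 over all genes), although the WT libraries of pairs 1 and 4 correlated best with the OE/OE library of another pair. Levels per kilobase divide by the merged GENCODE M21 exon length. Exon bases overlapped another gene for 18 of the 43 genes, for 6 of them over 10% of the length. The scripts were tested on simulated data.

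Genes named are those with p of 0.05 or less or the same direction in all pairs, the 5 highest and 5 lowest WT levels, the 5 largest litter SDs and the 3 largest changes either way, and a few set genes of the ISG15 and clock lists. The members and lists were chosen with earlier results of these data known. Usp25, Usp53, Usp1, Usp39, Usp18 and paralogs were named after their values were seen or for their role. Alternatives were other pseudocounts, a filter at a mean of 50, no trend, no replicate block, other tools and scalings, the adipocyte or mitosis score in the model and omission of each pair. The count without Usp6nl was added after seeing the data. Some of the relations and list genes computed are not reported here.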

Additional observations from a re-analysis of the deposited data

Results flagged for a closer look

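Usp53 in the OE/OE mouse of pair 4 lay far below the other 6 OE/OE mice. Its value was 784 normalized counts, the next lowest was 1429, and on the log2 scale this gap was 0.581 of the range of the group, more than Dixon's criterion allows for 7 samples at the 95% level. Over the 86 groups examined, 4.3 such gaps come by chance, and this was the only 1 found. The WT littermate of that mouse was also the lowest of its group, with 1117. The same OE/OE library had the highest mitosis and S phase score, 3.53 above its littermate on the log2 scale, and its part in the Usp53 value was not tested.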

How the results depend on the processing

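Usp28 was the only member called under the other pseudocounts, the filter, no trend, edgeR, DESeq2, median centring and quantile normalization. Without the replicate block, which ignores the pairing, 0 members and 0 other deubiquitinases were called, and 1.13% of all genes. The untransformed paired test called 2 members (Usp28 and Usp47), 4 other deubiquitinases, 1 cofactor and 1 clock gene. The adipocyte covariate called 5 members, 5 other deubiquitinases, 3 cofactors, 8 ISG15 pathway genes and 8 clock genes, and the mitosis covariate 2 members (Usp28 and Usp46). Other deubiquitinases numbered 1 with the filter and 1 with DESeq2, and clock genes 1 without the trend. Median centring gave 1 cofactor and 1 clock gene, and quantile normalization 2 clock genes. With each pair left out, the counts were 0 to 3 members, 0 to 4 other deubiquitinases, 0 to 1 cofactors, 0 to 1 ISG15 pathway genes and 0 to 3 clock genes, the highest without pair 5 for members and without pair 4 for other deubiquitinases and clock genes. The litter share of the members stayed within their spread.

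Some changes turned sign, among them that of Usp13 (0.23). Usp35 was -0.011 in the untransformed test, Usp9x -0.029 and Usp2 -0.018 after quantile normalization, and with the adipocyte covariate Usp40 was -0.26, Usp35 -0.095, Usp49 -0.032 and Usp13 -0.14. With a pair left out the log2 fold change ran from -0.026 to 0.070 for Usp9x, from -0.083 to 0.16 for Usp2, from -0.083 to 0.13 for Usp40, from -0.037 to 0.081 for Usp35, from -0.023 to 0.14 for Usp49, from -0.012 to 0.15 for Usp24 and from -0.021 to 0.12 for Usp54, and without a change of sign from 0.080 to 0.33 for Usp13. Over the 17 named members and 19 alternatives, 306 of 323 values kept their direction. The cause was not tested. Depth limits Usp13 most.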

Other observations

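The transgene level and the members' change were not in the same order over pairs. The OE/OE mouse of pair 1 had the highest Usp22 level, 29531 normalized counts per kilobase, and the median change of the 43 genes in that pair was -0.08 on the log2 scale, with 10 of 43 higher than in its littermate. The OE/OE mouse of pair 8 had 18180 per kilobase of Usp22, and there the median change was 0.13, with 36 of 43 higher. The OE/OE mouse of pair 4 had the lowest Usp22 level, 15339 per kilobase, with a median change of 0.09 and 25 of 43 higher. In pairs 3, 5, 6 and 7 the OE/OE level of Usp22 was 24436, 23486, 21068 and 22096 per kilobase. The median changes there were 0.08, 0.15, 0.06 and -0.003, that of pair 5 being the largest of all pairs. No relation was computed over the 7 pairs.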
